A study of Homo sapiens with 6 samples.

Results

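The MYC and MAX network is a group of 10 genes, MYC, MYCL, MYCN, MAX, MXD1, MXD3, MXD4, MXI1, MNT and MGA, which were taken by symbol from a table of 17280 genes. The table held 9 of them, and all 9 passed the filter on low values (an average of 1 TPM or more); MYCN was not analysed here. RNA was sequenced from spheres of CAL-27, a human cell line established from a squamous cell carcinoma of the tongue; sphere culture, without attachment, is a common way to enrich stem-like cells. The 3 control libraries are titled CON, and their treatment field reads normal control. The 3 other libraries are titled LF3, after an inhibitor that keeps beta-catenin from binding TCF4, and the series design gives an exposure of 24 h. Their treatment field instead names elesclomol-Cu, a copper ionophore loaded with its metal, so "LF3" below means the libraries with that title. Both groups come from the same cell line. As no label calls the replicates separate cultures, the p-values speak only to the spread among these libraries, which can be technical.

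MYC, MYCL and MYCN are transcription factors that bind DNA only as a pair with MAX. Such pairs bind the E-box, the letters CACGTG, and raise transcription of genes for ribosome production, nucleotide synthesis and cell division. MXD1, MXD3, MXD4, MXI1 and MNT compete for MAX and for the same sites, where they bring in the SIN3 and histone deacetylase complex and repress. MGA also pairs with MAX and belongs to a variant of Polycomb repressive complex 1. MXD genes are known to rise as epithelial cells stop dividing and differentiate, and MYC is a known target gene of beta-catenin and TCF4.

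Values are TPM (length-scaled transcript abundance in a library of fixed total), which corrects for gene length, so levels of different genes can be set side by side. This unit keeps no read depth, which is therefore unknown. A log2 fold change is the mean log2(TPM + 1) of LF3 less that of CON, ± the standard error of limma, and a gene is called when its Benjamini-Hochberg adjusted p over all 12195 tested genes is under 0.05. The LF3 libraries differed from CON in most genes: 85.5% of tested genes were called, 53.2% higher and 32.3% lower, with a median log2 fold change of 0.24. Rescaling by median ratio brought that median to -0.0055 and the calls to 42.6% higher and 42.7% lower (85.3% in either direction). Quantile normalization gave 43.9% higher and 41.4% lower (85.4%). Of the squamous epithelial markers, 8 of 9 passed the filter, and 5 were called higher and 2 lower (3 and 4 after median-ratio rescaling). KRT5 stood at 102 ± 3.43 TPM in CON and 454 ± 6.66 in LF3, KRT17 had a log2 fold change of -1.75 ± 0.042, and KRT14 stood at 0.777 ± 0.0757 TPM in CON and 0.447 ± 0.143 in LF3. Markers of other cell types summed to 349 to 364 TPM in CON and 62.0 to 68.1 TPM in LF3 over 14 genes, none of which was at 0 in all 6 libraries. Of these, 9 had a mean under 1 TPM, PTPRC, COL3A1 and HBB were listed at 0 in all LF3 libraries, and CD68 made up 334 ± 6.49 TPM of the sum in CON and 47.4 ± 2.25 TPM in LF3. Of the 5 that were tested, CD68, COL1A1, ACTA2 and PDGFRB were called lower, the last of these not in every alternative. The endothelial CDH5 was called higher, at 0.110 TPM in every CON library and 6.19 ± 0.654 TPM in LF3, while PECAM1, another endothelial marker, stood at 0.16 to 0.32 TPM in CON and 0.17 to 0.31 in LF3. All libraries come from the same cell line, so these markers do not count cells of other types. The part of this difference in the results was not tested. In bulk RNA fewer cells that express a gene and less RNA per cell cannot be told apart.

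MYC and MAX were higher and most of their repressive competitors lower in LF3. Of the 9 members, 2 were called higher, 5 were called lower and 2 were not called. Over all tested genes 85.5% were called, 53.2% higher and 32.3% lower. The 7 called members are near that total share, so the count of calls itself is no result about the network. Under median-ratio rescaling and under quantile normalization 2 members were called higher and 6 lower, beside 42.7% and 41.4% of all tested genes called lower. The sizes ran from a 10.2-fold fall of MXD1 to a 2.37-fold rise of MYC, as ratios of mean TPM. In the 7 called members the 2 groups of libraries did not overlap, which 86.2% of all tested genes also showed (53.5% with LF3 above and 32.7% with LF3 below).

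**Figure D1:**
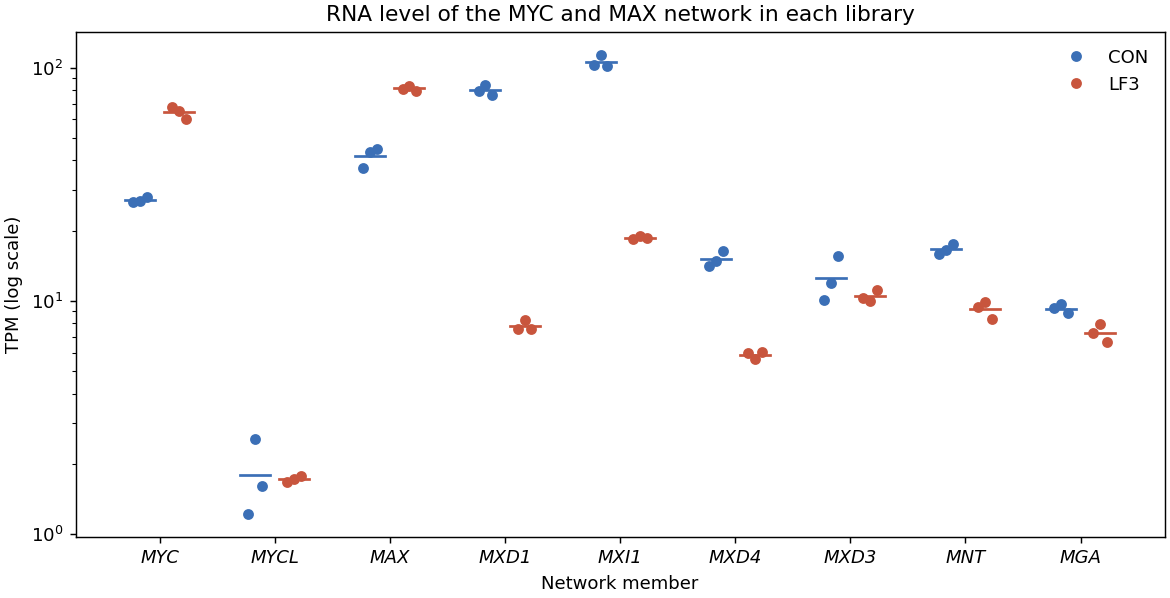
TPM of each network member (log axis) in the 3 CON and the 3 LF3 libraries; points are libraries and bars are group means. MYC and MAX lie higher in all LF3 libraries, MXD1, MXI1, MXD4, MNT and MGA lie lower, and MYCL and MXD3 overlap.

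MYC, the activator of the network, stood at 26.57, 26.84 and 28.00 TPM in CON and at 67.59, 65.04 and 60.39 in LF3. Every LF3 library was above every CON library. The log2 fold change was 1.21 ± 0.054 (limma adjusted p = 2.98e-09), and 1806 of the tested genes had a larger one. After median-ratio rescaling it was 0.95, and quantile normalization gave 0.85, both still called. MYCL, the paralog first found in lung cancer, was the least abundant member, at 1.22, 2.55 and 1.61 TPM in CON and 1.67, 1.72 and 1.77 in LF3. All 3 LF3 values of MYCL lay within the CON range. Its log2 fold change of -0.011 had a 95% interval of -0.35 to 0.33 (limma adjusted p = 0.95), so a modest change in either direction was not detectable.

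MAX, the partner that MYC needs to bind DNA and that its repressive competitors share, stood at 37.30, 43.39 and 44.57 TPM in CON. In LF3 it stood at 81.10, 83.86 and 79.77 TPM. The groups did not overlap, the ratio of means was 1.95, and the log2 fold change was 0.95 ± 0.064 (limma adjusted p = 9.73e-08). Median-ratio rescaling gave 0.68 and quantile normalization 0.60.

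The largest differences were those of a pair of repressors, MXD1 and MXI1. MXD1, a repressor known from differentiating keratinocytes and myeloid cells, stood at 79.15, 83.93 and 76.40 TPM in CON and 7.59, 8.26 and 7.56 in LF3. The lowest CON value of MXD1 was thus far above the highest LF3 value. Its log2 fold change was -3.20 ± 0.059 (limma adjusted p = 5.86e-12), and 58 of 12195 tested genes had a more negative one. MXI1, a repressor that is also known to be induced by low oxygen, stood at 102.65, 113.14 and 101.22 TPM in CON and at 18.34, 18.95 and 18.58 in LF3. It was the most abundant member in CON, and its LF3 libraries differed little from each other. MXI1 had a log2 fold change of -2.44 ± 0.053 (limma adjusted p = 1.81e-11), with 181 tested genes more negative.

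The other repressors fell less or were not called. MXD4 stood at 14.14, 14.76 and 16.37 TPM in CON and 5.99, 5.63 and 6.02 in LF3. The log2 fold change of MXD4 was -1.22 ± 0.075 (limma adjusted p = 4.39e-08). MNT, which is made in growing and resting cells alike and opposes MYC in both, stood at 15.89, 16.48 and 17.51 TPM in CON and 9.42, 9.92 and 8.36 in LF3. Both genes were lower in every LF3 library, and MNT had a log2 fold change of -0.79 ± 0.076 (limma adjusted p = 2.06e-06). MXD3, the MXD member known from dividing cells in S phase, stood at 10.12, 11.89 and 15.57 TPM in CON and 10.26, 10.02 and 11.14 in LF3. Its groups overlapped and the CON libraries were spread more widely than the LF3 libraries. The log2 fold change of MXD3 was -0.22 ± 0.12 with a 95% interval of -0.49 to 0.056 (limma adjusted p = 0.120). MXD3 was called lower under median-ratio rescaling (-0.47, adjusted p = 0.00472), under quantile normalization (-0.50, adjusted p = 0.00413) and without CON replicate 1 (-0.35, adjusted p = 0.0135).

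MGA, the largest protein of the network, stood at 9.27, 9.68 and 8.84 TPM in CON and 7.25, 7.92 and 6.66 in LF3. The groups did not overlap, but the gap was small, at a ratio of means of 1.27. Its log2 fold change was -0.31 ± 0.079 (limma adjusted p = 0.00352), and 3362 tested genes had a more negative one.

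**Figure D2:**
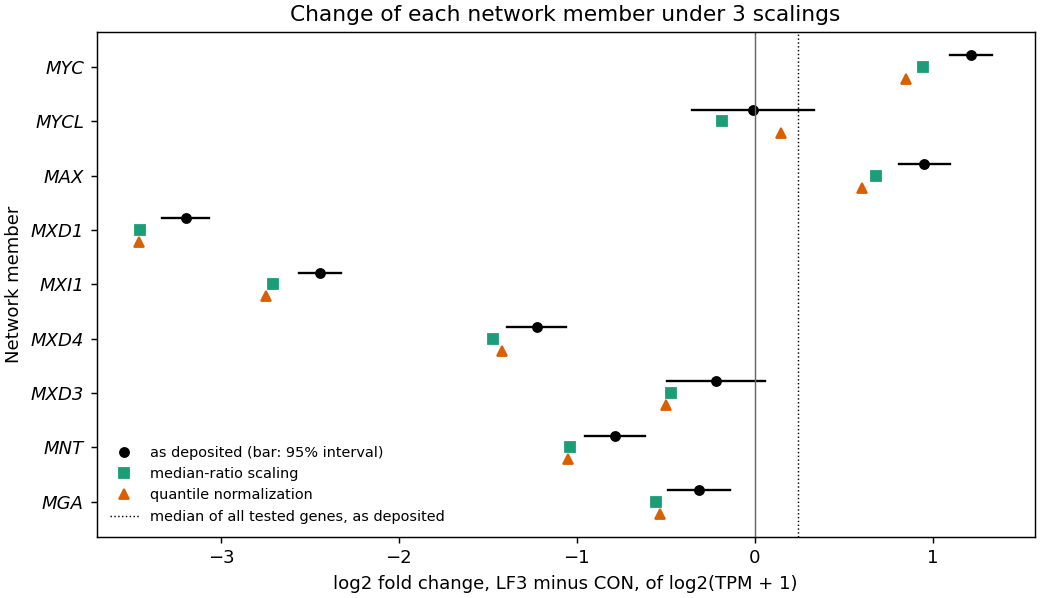
Log2 fold change of each member on the log2(TPM + 1) scale as deposited, with its 95% interval, and after median-ratio and quantile scaling; the dotted line is the median of all tested genes, 0.24. Both scalings moved 8 of the members to lower values, and MYCL was the exception, at 0.15 after quantile normalization.

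The order of the members changed between the groups. In CON the order of mean levels was MXI1, MXD1, MAX, MYC, MNT, MXD4, MXD3, MGA and MYCL. Neighbours in that order did not overlap, except MNT with MXD4 and MXD4 with MXD3. In LF3 the order was MAX, MYC, MXI1, MXD3, MNT, MXD1, MGA, MXD4 and MYCL, with only MXD1 and MGA overlapping among neighbours. MXD1 went from the second place to the sixth, at 79.8 ± 3.81 TPM in CON and 7.80 ± 0.396 in LF3 (SD, n = 3).

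Together the 9 members summed to 309.7 ± 13.2 TPM in CON and 206.9 ± 5.88 in LF3 (SD, n = 3). The MXD family and MNT made up 74.2 ± 0.867% of that sum in CON and 25.1 ± 0.586% in LF3. MYC made up 8.77 ± 0.394% in CON and 31.1 ± 1.11% in LF3, and MAX 13.5 ± 0.893% and 39.4 ± 0.579%. The ratio of MYC to the summed MXD family and MNT was 0.120, 0.112 and 0.123 in the CON libraries and 1.31, 1.23 and 1.17 in the LF3 libraries. MYC was thus the minority against its repressive competitors in every CON library and the majority in every LF3 library, at the level of RNA. The ratio of MAX to the sum of all its partners was 0.144 to 0.168 in CON and 0.633 to 0.662 in LF3. These shares and ratios are formed within a library, so a single scaling factor per library cancels out of them; they are given with no test, since they combine members chosen with results known.

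**Figure D3:**
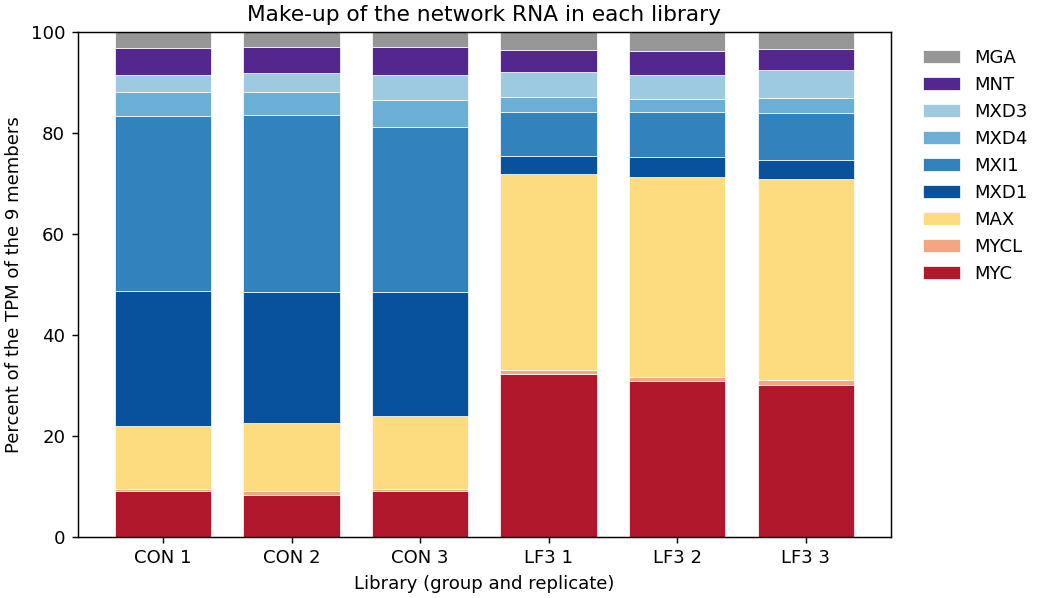
Share of each member in the summed TPM of the 9 members, in percent, for each library. MXD1 and MXI1 together hold 57.3 to 61.4% in CON and 12.4 to 13.1% in LF3, where MYC and MAX take most of the sum.

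The promoters of the members were searched for 3 motifs on both strands, from 250 bases before to 50 bases after each RefSeq start on GRCh38.p14. The motifs were the E-box CACGTG, the shorter ACGTG, which is the core of the site of the hypoxia-inducible factors and is contained in the E-box, and TCAAAG, the core of the TCF site. Windows were found for 8 of the 9 members; that of MYC was not analysed here. The E-box was in those of MXD4 and MNT, 2 of the 8 members (25%), against 12.7% of tested genes with a window and 7.26% of all 35116 windows. Windows of the other repressors MXD1, MXD3 and MXI1 held none, and 8 members are too few to tell their share from that of all genes. ACGTG was in windows of 5 members, MXD4, MNT, MXI1, MAX and MGA (32.6% of tested genes with a window, 21.4% of all windows), and TCAAAG in that of MXD3 alone (11.8% and 12.9%). MXI1 and MGA have 3 starts each and MAX has 2, so they had more than 1 chance of a match. The upstream stretches of MXD1, the member with the largest fall, and of MXD4, MNT and MXI1 are shown 5′ to 3′, ending before the first exon of GENCODE 29, with CACGTG in capitals (for MXI1, CACGT, the reverse strand of ACGTG); MXD1 had none of the 3 motifs. They lie at chr2:69914859-69915040 (plus strand), chr4:2262295-2262359 (minus), chr17:2401119-2401310 (minus) and chr10:110209981-110210230 (plus, the second of the MXI1 starts). A 30-base site before a start of MAX, chr14:65102288-65102317 (minus), has ACGTG in capitals. A match is a stretch of letters and not a shown binding site.
MXD1: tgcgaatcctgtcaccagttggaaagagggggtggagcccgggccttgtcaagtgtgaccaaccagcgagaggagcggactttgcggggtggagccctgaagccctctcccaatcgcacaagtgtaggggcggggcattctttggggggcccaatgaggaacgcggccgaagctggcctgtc
MXD4: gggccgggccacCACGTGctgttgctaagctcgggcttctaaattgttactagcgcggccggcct
MNT: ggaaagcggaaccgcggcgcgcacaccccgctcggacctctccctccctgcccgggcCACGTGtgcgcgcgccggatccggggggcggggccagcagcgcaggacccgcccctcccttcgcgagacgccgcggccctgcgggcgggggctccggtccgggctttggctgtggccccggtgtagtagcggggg
MXI1: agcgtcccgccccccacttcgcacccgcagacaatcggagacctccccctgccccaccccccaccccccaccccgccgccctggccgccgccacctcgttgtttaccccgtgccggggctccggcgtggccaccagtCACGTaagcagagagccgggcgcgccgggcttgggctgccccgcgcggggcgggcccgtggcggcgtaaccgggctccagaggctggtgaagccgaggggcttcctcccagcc
MAX: aggtggagagcgACGTGagtcctggggctt

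Target genes that MYC is known to activate were higher in LF3 nearly throughout. The Hallmark list of MYC targets V2, without MYC itself, had 56 of 57 tested members called higher and 1 lower, against 53.2% and 32.3% of all tested genes, with a median log2 fold change of 2.05. In 49 of them the rise was at least 2-fold on that scale, as in 20.8% of tested genes. The counts were the same after median-ratio and quantile scaling, with medians of 1.79 and 1.74. NOP16, a nucleolar protein of ribosome assembly, stood at 17.2 ± 1.13 TPM in CON and 176 ± 8.06 in LF3. SRM, the spermidine synthase, stood at 23.0 ± 0.777 and 156 ± 4.03 TPM, and PA2G4, a growth-regulated RNA-binding protein, at 51.0 ± 0.943 and 322 ± 5.48 TPM. The member that fell was HK2, the hexokinase of glycolysis, at 567 ± 2.91 TPM in CON and 56.5 ± 1.59 in LF3. Many members of this list act in ribosome assembly and DNA replication, and the list was gathered from studies of MYC, so it is no measure of MYC binding in these cells.

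A second list of 35 textbook MYC-activated genes, which shares CDK4 and NPM1 with the first, had 31 members higher and 4 lower (27 and 4 after median-ratio rescaling), with a median of 1.34. The shares over all tested genes were 53.2% higher and 32.3% lower (42.6% and 42.7% rescaled). NCL, the nucleolar protein nucleolin, stood at 114 ± 3.81 TPM in CON and 552 ± 11.3 in LF3, and CAD, which starts pyrimidine synthesis, at 5.41 ± 0.436 and 33.8 ± 0.692 TPM. CDK4, the G1 kinase, had a log2 fold change of 1.95 ± 0.040, and TERT, the catalytic part of telomerase, one of 1.04 ± 0.095. ODC1, the first enzyme of polyamine synthesis, rose less, at 129 ± 1.46 TPM in CON and 194 ± 9.34 in LF3. The 4 that fell were CCND2, which encodes cyclin D2 (-3.20 ± 0.085), SLC2A1, the glucose transporter (-1.93 ± 0.033), ID2, an inhibitor of differentiation factors (-1.74 ± 0.094), and LDHA, lactate dehydrogenase (-0.42 ± 0.027). HK2, SLC2A1 and LDHA are also known as genes induced by low oxygen, like MXI1. So are ENO1, PKM and TFRC of the textbook list, which were called higher as deposited (0.26 ± 0.026, 0.46 ± 0.030 and 3.76 ± 0.046). A part of low oxygen in these differences was not tested.

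The E-box was found in 25 of 47 members of the MYC targets V2 list that had a promoter window (53.2%) and in 12 of 29 of the textbook list (41.4%), against 12.7% of 10045 tested genes with a window. It was in 0 of the 7 MYC-repressed genes with a window, out of 13 in that list, which is too few to tell from 12.7%. Sites of 30 bases are shown, with the E-box in capitals, for ODC1, chr2:10448024-10448053 (minus strand), and for the 4 members of the V2 list with the smallest adjusted p among those called higher with an E-box upstream of a start, and for HK2, the member that fell, chr2:74834964-74834993 (plus). The 4 are HSPE1, a mitochondrial chaperonin, chr2:197500345-197500374 (plus), SRM, chr1:11060200-11060229 (minus), PLK1, a mitotic kinase, chr16:23678679-23678708 (plus), and CDK4, chr12:57752509-57752538 (minus). HSPE1 stood at 239.7 ± 2.17 TPM in CON and 1328 ± 28.4 in LF3, and PLK1 at 13.7 ± 0.764 and 134 ± 7.33 TPM.
ODC1: ccgggccccgggCACGTGtgcggcgcgcct
HSPE1: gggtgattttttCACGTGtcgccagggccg
SRM: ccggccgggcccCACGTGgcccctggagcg
PLK1: cccaggctatccCACGTGttcgggcgtccg
CDK4: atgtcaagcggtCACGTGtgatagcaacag
HK2: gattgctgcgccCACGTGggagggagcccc

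Genes known to be repressed by MYC, many of them through ZBTB17 (MIZ1), were split. Of 13 tested, 8 were lower and 4 higher (9 and 3 after median-ratio rescaling), with a median of -0.35. Over all tested genes the share called lower was 32.3%, and 42.7% when rescaled. Among the inhibitors of cyclin-dependent kinases, CDKN1A, CDKN2B and CDKN1C were lower and CDKN1B was not. CDKN1A, which encodes p21, stood at 203 ± 2.09 TPM in CON and 49.8 ± 0.823 in LF3. CDKN2B, which encodes p15, had a log2 fold change of -2.24 ± 0.062, and CDKN1C stood at 13.1 ± 1.78 and 0.640 ± 0.157 TPM. NDRG1, a gene repressed by MYC and induced by low oxygen, had the largest fall of the list (-6.07 ± 0.048). CEBPD (2.23 ± 0.10), THBS1 (1.97 ± 0.044) and FTH1 (1.81 ± 0.030) went the other way; they encode a transcription factor, a matrix protein and the heavy chain of ferritin. CDKN1B, which encodes p27, had 0.26 ± 0.045 as deposited and -0.0048 after median-ratio rescaling. ZBTB17 itself stood at 31.6 ± 2.91 TPM in CON and 19.7 ± 1.12 in LF3 (limma adjusted p = 7.65e-06). The partners in repression had 2 of 6 higher and 4 lower (1 and 4 after median-ratio rescaling), beside 53.2% and 32.3% of all tested genes. The count of 2 became 1 without CON replicate 3 and without LF3 replicate 2, where NFYB, a subunit of the CCAAT-binding factor, lost its call (limma adjusted p = 0.0595 and 0.060). Of the 4 lower, SP1 had -0.14 ± 0.055. Its call was lost without a trend and with any library but CON replicate 3 left out (limma adjusted p = 0.0511 to 0.149).

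**Figure D4:**
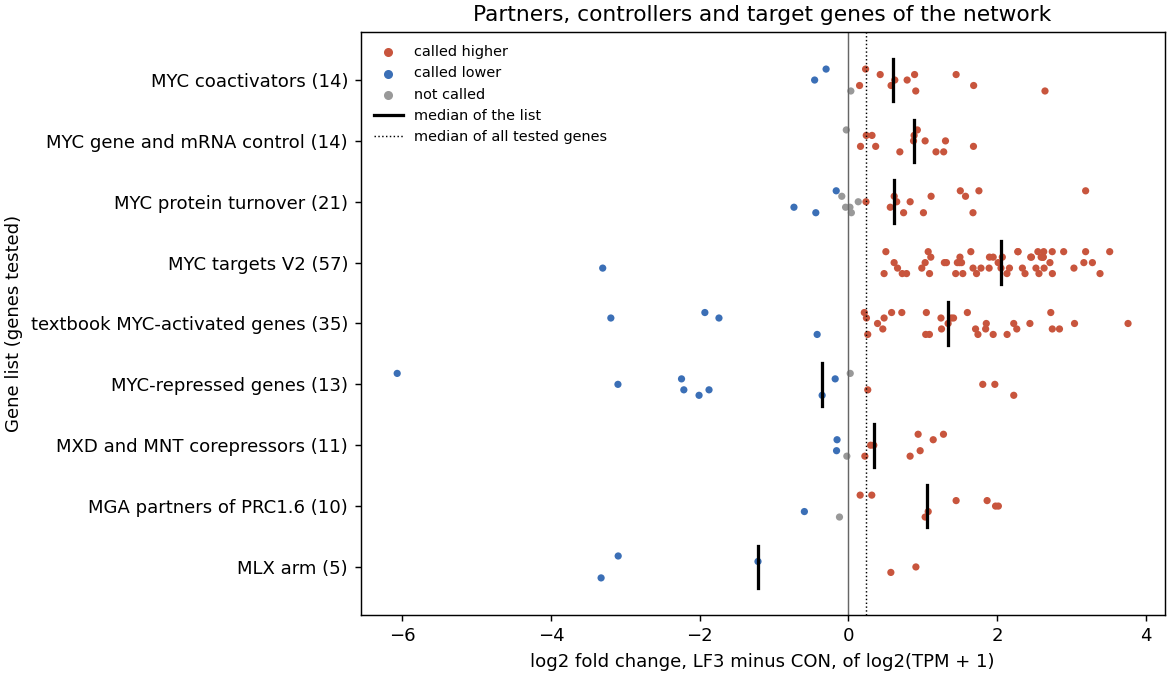
Log2 fold change on the log2(TPM + 1) scale of each tested gene in 9 lists around the network; points are genes coloured by their call, thick bars are list medians and the dotted line is the median of all tested genes. MYC targets V2 lie furthest to the right, with a median of 2.05 and HK2 alone below 0.

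Of 14 coactivators that MYC uses, 11 were higher and 2 lower (9 and 3 after median-ratio rescaling), with a median of 0.60. Of all tested genes 53.2% were higher and 32.3% lower (42.6% and 42.7% rescaled). RUVBL1, an ATPase of the TIP60 and INO80 complexes, stood at 22.5 ± 2.33 TPM in CON and 146 ± 2.91 in LF3, and its partner RUVBL2 had a log2 fold change of 1.69 ± 0.067. WDR5, which binds MYC and chromatin, had a log2 fold change of 1.45 ± 0.050. The lower ones were KAT5, the TIP60 acetyltransferase (-0.30 ± 0.051), and CCNT1, the cyclin of P-TEFb (-0.45 ± 0.076).

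Corepressors that the MXD proteins and MNT recruit were split in a way that depended on the scaling. Of 11 tested, 8 were higher and 2 lower, but 5 and 3 after median-ratio rescaling, with a median of 0.34 that became 0.080. Over all tested genes the share called higher was 53.2%, and 42.6% when rescaled, so the rescaled count is near the background. The histone deacetylase gene HDAC1 stood at 203 ± 3.13 TPM in CON and 362 ± 6.93 in LF3, and HDAC2 had a log2 fold change of 0.97 ± 0.045. SIN3A, the scaffold that MXD proteins bind, had 0.30 ± 0.051, which lost its call after median-ratio rescaling (0.037, adjusted p = 0.487) and was -0.017 with quantile normalization. The calls of SIN3B (-0.15 ± 0.060) and SAP30 (-0.16 ± 0.060) were each lost when single libraries were left out, as the closing section lists. Partners of MGA in the Polycomb complex had 8 of 10 members higher and 1 lower (6 and 2 after median-ratio rescaling), with a median of 1.05, beside 53.2% and 32.3% of all tested genes (42.6% and 42.7% rescaled). TFDP1 stood at 52.0 ± 1.18 TPM in CON and 214 ± 0.806 in LF3, L3MBTL2 had 1.98 ± 0.069 and PCGF6 1.87 ± 0.074, while RYBP had -0.59 ± 0.064.

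Genes that control MYC protein and MYC RNA were also measured. Of 21 genes for turnover of the protein, 13 were higher and 3 lower (12 and 7 after median-ratio rescaling). As deposited the share that was higher is near the 53.2% of all tested genes, of which 42.6% were higher when rescaled. The count of 3 lower became 2 without CON replicate 1 or 3 or LF3 replicate 1 or 2. In those fits USP36 (-0.16 ± 0.061) lost its call (limma adjusted p = 0.0806 to 0.102). FBXW7, the ubiquitin ligase subunit that marks phosphorylated MYC for degradation, had a log2 fold change of -0.44 ± 0.075 (limma adjusted p = 2.32e-04). SKP2, another ligase subunit for MYC that also acts as its cofactor, stood at 11.9 ± 0.768 and 42.7 ± 1.76 TPM. AURKA, a kinase that shields MYCN and MYC from FBXW7, had 1.68 ± 0.047, and PPP2R5A, a subunit of the phosphatase PP2A, had -0.73 ± 0.053. Of 14 genes for control of the MYC gene and its mRNA, 13 were higher and 0 lower (10 and 2 after median-ratio rescaling), beside the same shares of all genes. FUBP1, which binds upstream of MYC, stood at 29.6 ± 1.31 TPM in CON and 68.4 ± 3.66 in LF3, and HNRNPD, which binds AU-rich mRNA, had 1.68 ± 0.052. PUF60, the repressor of FUBP1 at MYC, had 1.31 ± 0.051.

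The neighbouring MLX arm, in which MLX pairs with the glucose-sensing factors MLXIP and MLXIPL in place of MAX, was split. MLX had a log2 fold change of 0.57 ± 0.050, and MLXIP, also called MondoA, stood at 8.71 ± 0.554 and 17.2 ± 0.482 TPM. MLXIPL, or ChREBP, stood at 2.05 ± 0.0802 TPM in CON and 0.320 ± 0.144 in LF3. Their target genes TXNIP and ARRDC4 had log2 fold changes of -3.10 ± 0.036 and -3.33 ± 0.051. MLX and MLXIP were thus higher in the libraries in which both of these targets were lower.

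The genes outside the network most like MYC and MAX over the 6 libraries were found by the root mean square distance between centred log2(TPM + 1) values, among 9943 tested genes averaging 5 TPM or more. For MYC these were DOCK1, TRMU, ALG6, TLCD3A and CARS2, at distances of 0.018 to 0.030. DOCK1 stood at 7.10 ± 0.202 TPM in CON and 17.6 ± 0.699 in LF3. For MAX they were VAC14, RNASEH2A, NAA60, RAB32 and NRM, at distances of 0.015 to 0.033, and RNASEH2A, a subunit of RNase H2, stood at 43.5 ± 3.89 and 86.2 ± 2.85 TPM. With 2 groups of 3 libraries this likeness mostly reflects a similar difference between the groups.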

How the data were processed

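RNA of CAL-27 spheres was measured in 6 libraries, 3 per group, grouped by their titles. Per the labels' protocols, a BGISEQ500 instrument gave single-end reads of 50 bases. HISAT, Bowtie2 and GRCm38.p6, a mouse build, are named in the submitters' processing notes, while the identifiers are human; the read counting: not given in the sources used here. Deposited values are TPM by the authors. Each library sums to the same total, so abundant genes that change shift every other gene, and gene-level values do not separate isoforms.

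Values were taken as log2(TPM + 1), in which changes of low genes look smaller. The 12195 genes averaging 1 TPM or more were tested in limma 3.58.1 (R 4.3.3) with its trend option, two-sided, and p-values were adjusted by Benjamini-Hochberg. No block was used. An exact permutation test of 3 against 3 cannot pass the threshold. Lists were counted with no set test and matched through RefSeq identifiers; promoter windows are from RefSeq (GRCh38.p14). The procedure was tested on simulated data with 12099 tested genes. It recovered 40% of genes changed by a log2 of 0.25, 78% at 0.5, 98% at 1 and 100% at 2, with 10 false calls. Few genes were changed there, equally likely in either direction, unlike in these data. The members, lists and tests were chosen with earlier results of these data known. Named genes are all members, up to 4 called genes per list and direction, a fixed set of 15, and the 5 genes most like MYC and MAX; not every one is printed, and other list members are named where few moved against their list or as marker checks. Alternatives were other pseudocounts (0.1, 0.5), filters (none, 5 TPM), scalings (median ratio, quantile) and limma options (no trend, robust, array weights), the replicate block, and each library left out.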

Additional observations from a re-analysis of the deposited data

How the results depend on the processing

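Over 16 alternatives, MYC and MAX stayed called higher and MXD1, MXI1, MXD4, MNT and MGA called lower in each, with log2 fold changes of 0.85 to 1.26 for MYC, 0.60 to 1.0 for MAX, -3.46 to -3.16 for MXD1, -2.75 to -2.39 for MXI1, -1.47 to -1.17 for MXD4, -1.05 to -0.72 for MNT and -0.56 to -0.26 for MGA. MXD3 ran from -0.50 to -0.063. MYCL, called in none of the 15 alternatives in which it was tested, changed sign with a pseudocount of 0.1 (0.0034), quantile normalization (0.15), array weights (0.055), without CON replicate 2 (0.18) and without LF3 replicate 1 (0.0026), and ran from -0.16 to 0.18 when a library was left out. Calls that changed sign after median-ratio and quantile scaling were those of CDH1 (-0.14 and -0.17), CDKN1B (-0.0048 and -0.10) and NFYB (-0.040 and -0.075), and after quantile normalization that of SIN3A (-0.017). SIN3B lost its call without CON replicate 1 or 3 or LF3 replicate 2 or 3 (adjusted p = 0.0520, 0.120, 0.0684 and 0.0919), and SAP30 without CON replicate 1 or 2 or LF3 replicate 2 or 3 (adjusted p = 0.103, 0.0834, 0.0960 and 0.0582). When a library was left out, 0 to 2 corepressors were called lower. The MYC targets V2 had 54 to 56 genes called higher, the fewest under the filter that left fewer genes tested. The ratio of MYC to the summed MXD family and MNT was 0.116 to 0.122 in CON and 1.20 to 1.27 in LF3 when a library was left out.

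The replicate numbers were not shown to pair the libraries. Deviations from the group means correlated at 0.048, 0.11 and 0.16 for same-numbered libraries. CON replicate 1 correlated more with LF3 replicate 2 (0.074). All other pairs with unlike numbers correlated negatively, from -0.17 to -0.013, so a pairing was not excluded. With the replicate number as a block, 6536 genes were called higher and 3986 lower, and the members kept 2 higher and 5 lower. DESeq2 and edgeR were not run, since the table holds no counts. TPM gives no depth, so the precision that depth allows is unknown.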

Other observations

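Among all tested genes with a promoter window, the 1278 that held an E-box had a median log2 fold change of 0.39, and 59.2% of them were called higher. The 8767 without one had a median of 0.24, and 53.1% were called higher. Within the MYC targets V2 list the median was 2.46 for the 25 genes with an E-box, of which HK2 was the one called lower, and 1.72 for the 22 without, all of which were called higher. The list thus lay above all genes on both sides of this split. These are descriptions with no test: genes are not independent replicates, genes with several starts had more windows searched, and a window of 300 bases leaves sites elsewhere out.

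The spread between CON libraries differed among the members. MXD3 had 12.5 ± 2.78 TPM in CON and 10.5 ± 0.590 TPM in LF3 (SD, n = 3), and MYCL 1.79 ± 0.684 and 1.72 ± 0.050 TPM. The highest CON value of MXD3 was in replicate 3, without which its log2 fold change was -0.063, and that of MYCL was in replicate 2, without which its log2 fold change was 0.18.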
